A study of Mus musculus with 16 samples.

Results

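Near intergenic regions were stretches of open chromatin outside annotated genes whose centre lay within 10 kb of a transcription start site. They were drawn from ATAC-seq of activated mouse B cells by joining touching or overlapping peaks of the 8 deposited peak lists into 16566 regions and placing each centre on the GENCODE annotation of GRCm38. A centre between 1000 bp upstream and 100 bp downstream of any start site was a promoter, one between 100 bp upstream and 1000 bp downstream of a transcript end was a termination region, and the remainder fell into exons, introns or intergenic sequence. Of 2846 intergenic regions, 813 lay within 10 kb of a start site with at most 50% of their bases soft-masked as repeats, and these are the near intergenic regions. A further 226 lay as close but were more heavily masked and were left out. The rule used position and masking and no difference between genotypes.

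All libraries came from splenic B cells of C57BL/6 mice of 7 to 14 weeks that carried CD23-Cre, a recombinase driven by the CD23 promoter and active in mature B cells. In the 4 Brg1fl/+ libraries (fl/+), the controls, 1 of the 2 alleles of Smarca4, the gene for Brg1, was floxed, so the controls were heterozygous and not wild type. In the 4 Brg1fl/fl libraries (fl/fl) both alleles were floxed. Every culture was stimulated with LPS (10 µg/mL) and IL-4 (20 ng/mL), for 72 h by the sample labels and 96 h by the series design, and 50000 cells entered each ATAC-seq reaction. The number of mice behind the libraries was not given, so p-values measure the spread between these libraries, which may be partly technical. The deletion itself was not checked here, and a smaller share of cells with an open site cannot be told apart from less opening per cell.

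Brg1 is one of the alternative ATPases of the BAF (SWI/SNF) complex, which slides and evicts nucleosomes and so exposes DNA to transcription factors. ATAC-seq reads such exposure as the density of transposase insertions. Open sites between genes include enhancers, insulators, promoters of transcripts missing from the annotation, and stretches of repeated sequence. Active promoters often coincide with CpG islands, where CpG dinucleotides keep the frequency that base composition predicts, whereas most enhancers are CpG-poor. In activated B cells the AP-1, BATF and IRF factors and the lineage factors PU.1, EBF1, E2A and OCT2 bind many distal sites, and the IgG constant genes lie downstream of switch regions built of tandem repeats.

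The following 3 sequences are shown because a peak lay on each region in all 4 fl/+ libraries and in no fl/fl library. Capitals mark matches, on either strand, to the short motifs that were searched. They are, in order, CTCF and SP/KLF near Gm37230, a pair of overlapping EBF matches, RUNX and E2A near Pik3r6, and a pair of E2A matches and a CCAAT box near Nfam1. All coordinates and sequences here are GRCm38.
Gm37230, chr9:108201195-108201395, plus strand: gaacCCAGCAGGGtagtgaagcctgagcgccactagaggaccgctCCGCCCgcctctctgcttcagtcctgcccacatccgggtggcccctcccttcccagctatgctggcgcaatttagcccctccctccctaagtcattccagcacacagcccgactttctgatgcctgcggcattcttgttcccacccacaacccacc
Pik3r6, chr11:68498782-68498982, plus strand: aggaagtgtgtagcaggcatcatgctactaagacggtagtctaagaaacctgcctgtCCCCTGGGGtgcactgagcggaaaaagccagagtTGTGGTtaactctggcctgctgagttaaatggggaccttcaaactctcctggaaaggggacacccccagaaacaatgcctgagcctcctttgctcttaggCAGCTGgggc
Nfam1, chr15:83038165-83038365, plus strand: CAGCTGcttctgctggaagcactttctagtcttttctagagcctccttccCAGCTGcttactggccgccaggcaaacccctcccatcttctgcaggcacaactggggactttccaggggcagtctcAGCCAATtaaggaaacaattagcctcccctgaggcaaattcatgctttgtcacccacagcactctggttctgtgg

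These 4 regions were open in all 8 libraries, and their scaled fragments differed between genotypes. Capitals again mark motif matches. They are an OCT match, CCAAT, SP/KLF and CCAAT near Nr4a1, YY1 near Nr4a3, a pair of SP/KLF matches and EBF near Gm12974, and EBF and a pair of SP/KLF matches near Gm18604. They hold more CpG dinucleotides than the first set.
Nr4a1, chr15:101246360-101246560, plus strand: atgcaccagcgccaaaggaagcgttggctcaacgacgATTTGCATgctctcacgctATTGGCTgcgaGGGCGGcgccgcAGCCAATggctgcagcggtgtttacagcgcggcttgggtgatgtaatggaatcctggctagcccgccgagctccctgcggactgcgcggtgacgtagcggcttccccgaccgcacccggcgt
Nr4a3, chr4:48043124-48043324, plus strand: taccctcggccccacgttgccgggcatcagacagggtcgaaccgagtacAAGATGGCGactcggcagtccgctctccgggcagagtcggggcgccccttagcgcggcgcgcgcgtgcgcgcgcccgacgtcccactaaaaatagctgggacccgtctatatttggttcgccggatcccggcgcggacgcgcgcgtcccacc
Gm12974, chr4:133813500-133813700, plus strand: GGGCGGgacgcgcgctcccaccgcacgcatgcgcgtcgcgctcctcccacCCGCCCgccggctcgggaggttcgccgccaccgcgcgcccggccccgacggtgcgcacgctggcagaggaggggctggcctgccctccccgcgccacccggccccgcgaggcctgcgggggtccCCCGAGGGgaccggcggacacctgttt
Gm18604, chr17:36231458-36231658, plus strand: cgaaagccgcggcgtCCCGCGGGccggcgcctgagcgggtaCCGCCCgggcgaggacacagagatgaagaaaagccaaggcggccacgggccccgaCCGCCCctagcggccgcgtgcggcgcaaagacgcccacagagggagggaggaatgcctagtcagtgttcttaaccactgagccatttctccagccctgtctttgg

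The last set shows tandem repeats, in which capitals mark a single repeat unit of 27 bp near Gm6216, 59 bp near Gm43305 and 49 bp near Ighg1. The Gm6216 region carried a peak in every fl/fl and no fl/+ library, the Gm43305 region rose in fl/fl, and the Ighg1 region lies upstream of an immunoglobulin constant gene.
Gm6216, chr1:12657558-12657678, plus strand: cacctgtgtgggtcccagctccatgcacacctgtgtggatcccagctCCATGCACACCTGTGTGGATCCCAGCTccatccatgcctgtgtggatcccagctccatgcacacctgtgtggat
Gm43305, chr14:54306450-54306570, plus strand: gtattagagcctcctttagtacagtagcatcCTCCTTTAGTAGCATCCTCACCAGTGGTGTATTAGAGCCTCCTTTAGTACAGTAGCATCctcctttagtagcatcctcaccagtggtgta
Ighg1, chr12:113335436-113335556, plus strand: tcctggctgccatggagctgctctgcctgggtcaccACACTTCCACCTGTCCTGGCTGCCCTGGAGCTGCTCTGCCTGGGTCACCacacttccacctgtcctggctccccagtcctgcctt

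The length of the peak lists differed between libraries. The lists held 14614, 11283, 6372 and 7632 peaks in the fl/+ libraries 1 to 4 and 9216, 6271, 8500 and 8605 in the fl/fl libraries 1 to 4, and fl/+ library 1 stood apart as the longest. Total read counts are not in these files, so depth is not known. The fragments at each summit were recovered from its fold and p-value. The fragments expected from background alone were 0.541 to 1.30 per summit in fl/+ and 0.783 to 1.67 in fl/fl. List length did not follow this background, which was 1.30 in fl/+ library 1 (14614 peaks) and 1.38 in fl/fl library 4 (8605 peaks). Relative to promoter signal this background was 0.764 ± 0.130 (SD, n = 4) in fl/+ and 1.34 ± 0.0592 in fl/fl, with no overlap (exact permutation p = 0.0286, the smallest that 4 against 4 allows). Its part in the differences given here was not tested. Of 7 B cell marker genes, 2 or 3 had an open promoter in each library, with Ms4a1 (CD20) and Pax5 open in all 8 and Cd79b, Cd22 and Blk in none. Of 10 T cell markers, 1 had a promoter peak in fl/+ library 1 and none elsewhere, and none of the myeloid, NK or erythroid markers had one in any library.

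Near intergenic regions sat mostly upstream of genes. The centre was upstream of its nearest start site in 576 regions (70.8%) and downstream in 237, at a median distance of 5182 bp, and the median region was 387 bp wide. The nearest gene was protein coding for 364 regions (44.8%), a processed pseudogene for 158 (19.4%) and a lincRNA for 132 (16.2%). The 813 regions had 772 nearest genes, and 39 genes had at least 2. At the 10 kb limit, the regions near Gm37230 (9983 bp) and Gm36298 (9992 bp) were just inside and those near Gm45185 (10002 bp) and Rps25-ps1 (10031 bp) just outside. At the masking limit, the regions near Gm13064 (49.8% masked) and Treml2 (50.0%) were just inside and those near Gm48906 (50.2%) and Mir3471-2 (50.5%) just outside.

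Most of these regions were found in few libraries, and the few found everywhere were mostly CpG-rich. A peak lay on the region in 1 library only for 401 (49.3%) and in all 8 for 60 (7.38%). The ratio of observed to expected CpG, which is near 1 where CpG has not been lost, had a median of 0.295 over the 813 regions, 0.247 over those in 1 library and 0.727 over those in all 8. It exceeded 0.6 in 193 of the 813 (23.7%) and in 46 of the 60 (76.7%), against 86.1% of promoter regions, 13.4% of far intergenic regions (over 10 kb from a start site) and 23.9% of near intronic regions (introns within 10 kb). Far intergenic and near intronic regions were held to the same masking limit. The 60 were also wider, with a median of 770.5 bp against 298 bp for those in 1 library, and width depends in part on how many libraries were joined. Of the 94 regions within 2 kb of a start site 12.8% were in all 8 libraries, against 6.57% of the 289 at 2 to 5 kb and 6.74% of the 430 at 5 to 10 kb.

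**Figure D1:**
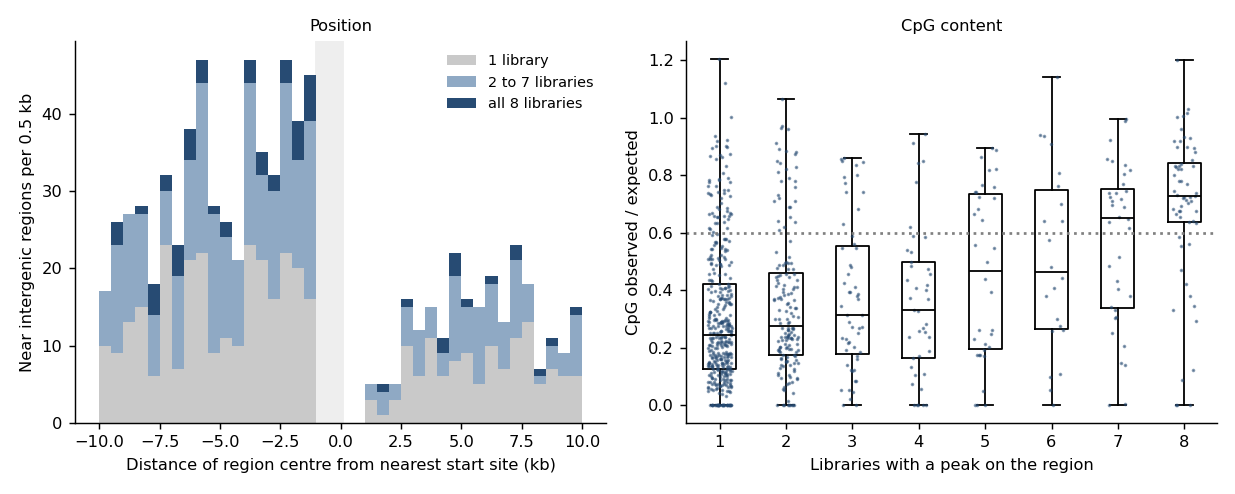
Left, number of near intergenic regions per 0.5 kb of distance between region centre and nearest start site (negative values upstream), stacked by the number of libraries with a peak, with the promoter window in grey. Right, CpG observed over expected of each region (points) by the number of libraries with a peak, with boxes from the lower to the upper quartile, the median as a line, whiskers over the whole range and a dotted line at 0.6. Regions lie mostly upstream, and the median CpG ratio is 0.247 for regions in 1 library and 0.727 for those in all 8.

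Openness of a near intergenic region went with an open promoter of its nearest gene in a minority of cases. That gene had a promoter region in any library for 218 of the 813 (26.8%) and for 24 of the 60 found in all 8 (40.0%). Within a library, the regions whose nearest promoter was open were detected in 13.0% (fl/fl library 2) to 88.5% (fl/+ library 1) of cases, and the others in 13.5% to 80.2%. Detection was higher beside an open promoter in every library except fl/fl library 2, where it was 13.0% against 13.5%.

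Within libraries, near intergenic regions were open far less often than promoters and about as often as the other distal classes. Averaged over the 8 libraries, 32.2% of near intergenic, 70.2% of promoter, 28.8% of far intergenic and 31.5% of near intronic regions carried a peak. The difference from promoters was -38.0 percentage points and held in 8 of 8 libraries (exact permutation test within libraries, adjusted p = 0.01875 over 12 tests). The difference from far intergenic regions was 3.35 points and was positive in 7 of 8 (adjusted p = 0.02679), although it did not pass when every list was shortened to the same length (4.55 points, adjusted p = 0.080). That from near intronic regions, 0.652 points, did not pass (adjusted p = 0.29063).

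Detected near intergenic peaks were intermediate in strength. Their median summit held 18.4 times the library background, averaged over libraries, against 30.3 for promoters (lower in 8 of 8, exact permutation, adjusted p = 0.01875), 16.3 for near intronic regions (higher in 8 of 8, adjusted p = 0.01875) and 16.9 for far intergenic regions (higher in 7 of 8, adjusted p = 0.09375). The background around them was raised as well. The local background of the peak caller was 1.68 times the library background beside near intergenic peaks and 1.42 beside both far intergenic and near intronic peaks (higher in 8 of 8 in each case, exact permutation, adjusted p = 0.01875). It was lower than beside promoters, 1.97 (adjusted p = 0.02679, exact permutation), but not with lists of equal length, where the difference was 0.0781.

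The short sequences under the summits differed between CpG-poor and CpG-rich near intergenic regions, in a direction that depended on the motif. Both strands within 100 bp of the strongest summit were searched for fixed letters. The signal-induced factors were represented by TGANTCA for AP-1 and BATF, GGAANTTCC for NF-kB, GAAANNGAA for IRF, TTCNNNGAA for STAT and TGACGTCA for CRE. For the lineage factors of B cells the letters were GAGGAAGT for PU.1, TGTGGT for RUNX, ATGCAAAT for OCT, CAGCTG for the E2A E-box and CCCNNGGG for EBF. General promoter and proliferation factors were covered by GGGCGG for SP/KLF, CCGGAA for ETS, GCGGGAA for E2F, CACGTG for the MYC E-box, AAGATGGCG for YY1 and AGCCAAT for the CCAAT box, and insulators by CCANNAGGG for CTCF. Matches of different motifs could share bases, and YY1 and CCAAT were added after values had been seen. The shares over all regions refer to 16512 regions on placed chromosomes. A match describes the sequence and is not evidence of binding.

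AP-1/BATF letters were in 12.7% of the 620 CpG-poor and 4.66% of the 193 CpG-rich near intergenic regions, against 13.1% of far intergenic, 2.39% of promoter and 4.83% of all regions. RUNX letters were in 20.6% and 7.77%, against 22.6%, 7.17% and 11.3%. The order was the opposite for SP/KLF, a class bound by factors of GC-rich promoters, with 10.5% of CpG-poor and 50.8% of CpG-rich near intergenic regions, against 14.04% of far intergenic, 68.0% of promoter and 47.9% of all regions. ETS letters behaved likewise, at 6.45% and 17.1%, against 26.5% of promoters and 19.2% of all regions. OCT letters, bound by the B cell octamer factors, were in 3.81% of the 813 and 2.06% of all regions, and CTCF letters in 5.04% and 4.49%. EBF, E2A and CCAAT letters were in 12.8%, 15.4% and 5.04% of the 813, against 14.3%, 11.2% and 7.72% of all regions. EBF letters were in 11.8% of CpG-poor and 16.1% of CpG-rich near intergenic regions, against 10.6% of far intergenic and 15.1% of promoter regions. For CCAAT these shares were 4.68% and 6.22%, against 3.49% and 11.3%. IRF and STAT letters were in 6.52% and 6.40% of the 813, against 4.34% and 3.94% of all regions, PU.1 in 3.44% against 2.97%, and MYC E-boxes in 7.01% against 7.26%. Of the 16512 regions, 9330 were promoters. In far intergenic and near intronic regions, IRF letters were in 8.58% and 7.1%, STAT in 6.50% and 4.6%, and PU.1 in 4.81% and 5.82%. OCT letters were in 4.15% and 2.73% of these classes, and E2A in 15.7% and 14.5%. Shares above those of all regions were therefore not particular to the near intergenic class. NF-kB, CRE, E2F and YY1 letters were in 0.984%, 1.11%, 1.85% and 0.738% of the 813, against 0.89%, 2.42%, 4.87% and 3.49% of all regions. SP/KLF and ETS letters contain a CpG, so their order between CpG-poor and CpG-rich regions follows in part from the division itself. The CpG ratio and GC-rich motifs share their base composition, so the motif shares are descriptions and were given no test.

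**Figure D2:**
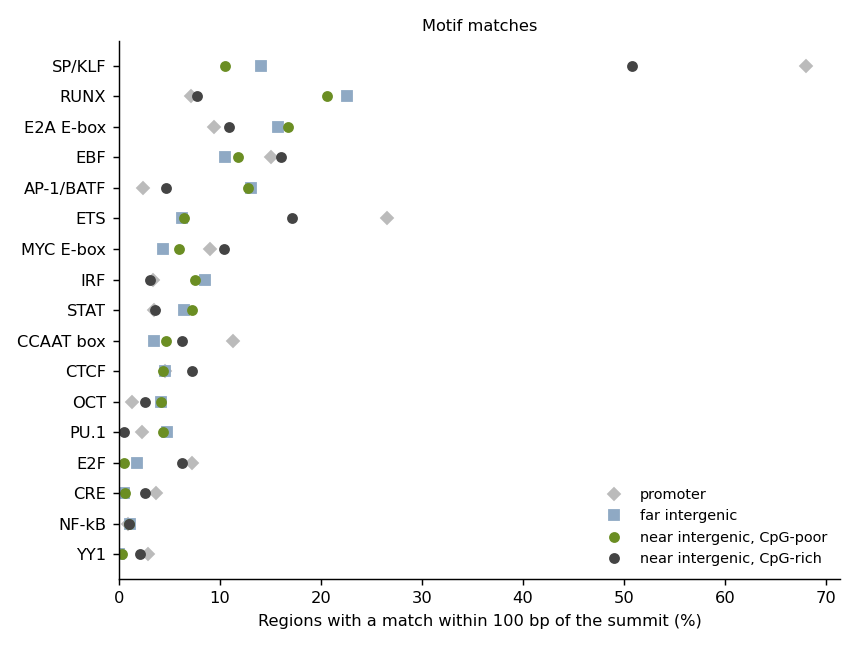
Percent of regions with a match within 100 bp of the strongest summit, for each motif, in CpG-poor and CpG-rich near intergenic regions, far intergenic regions and promoters. AP-1/BATF letters were in 12.7% of CpG-poor and 4.66% of CpG-rich near intergenic regions, and SP/KLF letters in 10.5% and 50.8%.

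The share of near intergenic regions detected did not separate the genotypes, because the fl/+ libraries differed widely among themselves. A peak lay on 669, 405, 128 and 178 of the 813 regions in fl/+ (82.3%, 49.8%, 15.7% and 21.9%) and on 229, 109, 185 and 189 in fl/fl (28.2%, 13.4%, 22.8% and 23.2%). The fl/+ libraries 1 and 2 were above every fl/fl library, and the fl/+ libraries 3 and 4 lay within the fl/fl range. The means were 42.4% ± 30.4 (SD, n = 4) and 21.9% ± 6.16, a difference of -20.5 points (exact permutation p = 0.3143), and with the 232 near intergenic regions of equal-length lists the difference was -5.50 points (exact permutation p = 0.0571). When regions were rebuilt without fl/+ library 1, 518 near intergenic regions remained and the difference was -11.2 points (exact permutation p = 0.6). Library 1 of fl/+ alone held 289 regions seen nowhere else.

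Set against other classes in the same library, the difference was close to that of other distal regions. Near intergenic minus promoter detection was -32.5 ± 12.1 points in fl/+ and -43.5 ± 3.65 in fl/fl, a difference of -11.02 (exact permutation p = 0.0571, n = 4), and was -15.0 (exact permutation p = 0.0286) over the 412 regions found in at least 2 libraries and -14.3 (exact permutation p = 0.0286) without fl/+ library 4, but -4.50 (exact permutation p = 0.2571) with equal-length lists. Near intergenic minus far intergenic detection was 2.99 ± 2.58 in fl/+ and 3.70 ± 1.86 in fl/fl, a difference of 0.712 (exact permutation p = 0.5714). Near intergenic minus near intronic detection was 0.304 ± 1.81 and 0.999 ± 1.15, a difference of 0.695 (exact permutation p = 0.6286).

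The average covered kinds of sequence that gave opposite differences. The regions were divided, after their values had been seen and therefore without a test, into 66 tandem-repeat regions (8.12%), 560 other CpG-poor regions and 187 other CpG-rich regions with a CpG ratio over 0.6. A region was tandem-repeat when over 50% of its 31-base words occurred more than a single time within it. The repeat shift was the smallest at which a sequence matched itself nearly as well as at its best. In these 66 it was 5 to 80 bp (median 32). The 5 bp came from the region near Gm36079, where 23.3% of bases matched, and is not a repeat unit. The median width of the 66 was 617.5 bp against 376 bp in the other near intergenic regions, and 29 held no CpG at all. In 55 of them no base was soft-masked, so the repeat annotation did not mark them, and in 56 over 50% of the words also occurred elsewhere in the genome. How the study's alignment placed reads with several matches is not given in the sources used here.

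Tandem-repeat regions were detected more often in fl/fl. A peak lay on 28.8%, 31.8%, 18.2% and 22.7% of the 66 in fl/+ and on 65.2%, 31.8%, 50.0% and 50.0% in fl/fl, so that 3 fl/fl libraries were above every fl/+ library and fl/fl library 2 equalled fl/+ library 2. The means were 25.4% ± 6.11 (SD, n = 4) and 49.2% ± 13.6, and the difference was 25.0 points without fl/+ library 1 against 23.9 with it. Of the 66 regions, 47 were in more fl/fl than fl/+ libraries, 9 in fewer and 10 in as many, and 37 were in no fl/+ library. Of these 37, 22 had a peak in only 1 fl/fl library. A region found in a single library counts towards that library's genotype by construction, in fl/fl as in fl/+. Over all 16566 regions 16.7% were in more fl/fl libraries and 47.2% in fewer, and over the 813 near intergenic regions these were 112 (13.8%) and 593 (72.9%). Tandem-repeat regions of the other distal classes had mean detection of 16.9% in fl/+ and 44.4% in fl/fl (far intergenic) and 29.2% and 47.7% (near intronic). The rise was therefore not particular to the near intergenic class. It was absent from the 22 tandem-repeat promoter regions, where mean detection was 55.7% in both genotypes.

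The other CpG-poor regions gave the reverse order. They were detected at 84.8%, 46.6%, 9.64% and 13.8% in fl/+ and 15.4%, 4.82%, 10.2% and 10.5% in fl/fl, where fl/+ libraries 3 and 4 lay within the fl/fl range and the mean difference of -28.5 points was -13.1 without fl/+ library 1. Of the 560, 485 were in fewer fl/fl libraries and 39 in more. The other CpG-rich regions were at 93.6%, 65.8%, 33.2% and 46.0% in fl/+ and 53.5%, 32.6%, 50.8% and 51.9% in fl/fl, and the difference of -12.4 points was -1.11 without fl/+ library 1.

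When every list was cut to its 6271 best peaks by q, which left 232 near intergenic regions, the genotypes lay apart for the CpG-poor kind alone among the 3. CpG-poor regions (113 without the tandem repeats) were at 40.7%, 42.5%, 46.9% and 43.4% in fl/+ and 28.3%, 25.7%, 23.9% and 18.6% in fl/fl, with no overlap and means of 43.4% ± 2.61 and 24.1% ± 4.11 (SD, n = 4). Tandem-repeat regions (23) were at 8.70%, 13.0%, 43.5% and 13.0% in fl/+ and 39.1%, 82.6%, 39.1% and 26.1% in fl/fl, where fl/+ library 3 was above 3 of the 4 fl/fl libraries. CpG-rich regions (96) were at 61.5% to 71.9% in fl/+ and 60.4% to 76.0% in fl/fl, with means of 67.2% ± 4.38 and 70.1% ± 7.53 that lay within the spread. The same division of far intergenic regions gave 45.5% to 51.0% against 26.2% to 29.7% for the CpG-poor kind, and of near intronic regions 41.2% to 51.2% against 23.5% to 29.4%, so the pattern was not particular to the near intergenic class. A fixed list length turns a gain in 1 kind of region into a loss in another, so these shares are relative.

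**Figure D3:**
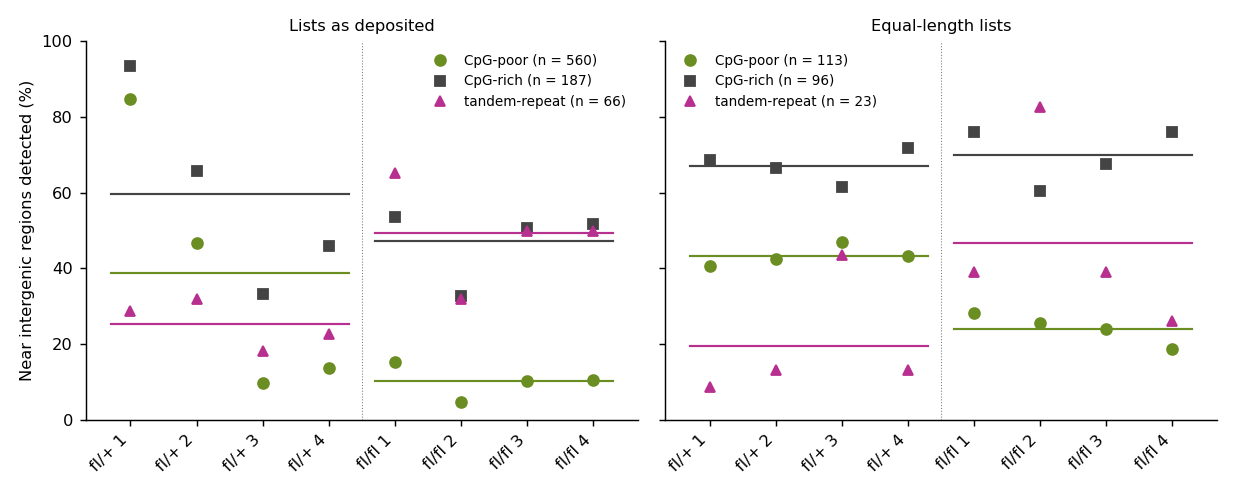
Percent of near intergenic regions with a peak in each library for tandem-repeat, other CpG-poor and other CpG-rich regions, with the lists as deposited (left) and with 6271 peaks in every list (right). Horizontal lines are the means of the 4 libraries of a genotype, and the vertical dotted line parts fl/+ from fl/fl. With equal lists CpG-poor regions are at 40.7% to 46.9% in fl/+ and 18.6% to 28.3% in fl/fl.

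A peak lay on 9 near intergenic regions (1.11%) in all 4 fl/+ and no fl/fl library, against 0.404% of all 16566 regions, and on 3 (0.369%) in all 4 fl/fl and no fl/+ library, against 0.169%. The 9 belonged to the CpG-poor kind without tandem repeats, and the 3 were tandem-repeat regions. The first count was 26 without fl/+ library 3 and 15 without fl/+ library 4, and the second was 6 without fl/+ library 1 and 5 without either fl/fl library 1 or 4. Outside tandem repeats, regions confined to fl/+ were 9 of 747 near intergenic, 11 of 941 far intergenic and 18 of 1441 near intronic. Such regions were therefore not particular to the near intergenic class. Among the 9 were regions upstream of Pik3r6, a regulatory subunit of the PI3-kinase gamma complex, Nfam1, an ITAM-bearing receptor that signals in B cells, and Pmaip1, which encodes the pro-apoptotic BH3 protein NOXA. Values in the sentences that follow are fragments at the summit divided by the library's size factor.

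The region with the best worst rank by q among the 9, 9983 bp upstream of the unclassified transcript Gm37230 on chromosome 9, held 17.5, 22.5, 30.7 and 31.2 scaled fragments in the fl/+ libraries and a CTCF match. The region 6676 bp upstream of the pseudogene Gm49091 on chromosome 15 held 30.9, 27.3, 22.2 and 24.5, and a RUNX match. These were well above the smallest near intergenic value called in any library, which ran from 3.61 to 10.6. The region 5040 bp upstream of Pmaip1 held 20.1, 27.3, 18.8 and 20.0 with AP-1, RUNX and EBF matches, and the Pmaip1 promoter itself was open in 4 libraries. The region 4066 bp upstream of Pik3r6 held 16.5, 15.2, 17.1 and 20.0, and that 4822 bp upstream of Nfam1 held 12.9, 12.0, 13.6 and 16.7. The smallest values called in the 4 fl/fl libraries were 6.58, 10.6, 7.38 and 8.20, so a signal below these would leave no peak there and its absence is not shown. The other four were near Gm16181, Fbxo48, Gm16433 and Gm36953.

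The 3 regions with the reverse pattern all lay in sequence without a CpG. That 1823 bp downstream of the pseudogene Gm6216 held 23.0, 30.1, 15.7 and 16.4 scaled fragments in the fl/fl libraries. That near the pseudogene Gm18765 held 11.5, 19.5, 14.8 and 12.8, and that downstream of Tac1, which encodes the precursor of substance P, held 9.05, 15.95, 13.8 and 10.0. Their repeat shifts were 27, 16 and 39 bp. None of the 3 held a match to any of the 17 motifs.

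Fragment numbers were compared over the regions with a recovered value in all 8 libraries, 4566 in all and 59 of the near intergenic ones (1 of the 60 had unresolved peaks), scaled by promoter signal. The test was limma on log2 values with Benjamini-Hochberg adjustment over the 4566. Of the 59, 5 (8.47%) were lower in fl/fl and 7 (11.9%) higher, against 4.66% and 7.1% of all regions, and the median difference was 0.01 on the log2 scale, against 0.02 over all regions. The fl/fl values were all below the fl/+ values in 8 of the 59 (13.6%, against 6.72% of all) and all above in 10 (16.9%, against 8.87%). Scaling by the library background in place of promoter signal moved the median of the 59 to -0.82 with 49 lower and 1 higher, so every direction here is relative to promoters. With the deposited fold, which divides by the local background, 3 were lower (Gm18604, Nr4a1 and Tex44) and 2 higher (Gm43305 and Gm11668). The number lower was 2 without fl/+ library 2 and 3 without any 1 of fl/+ libraries 1 and 4 or fl/fl libraries 1, 2 and 4. Requiring a peak in every library leaves out regions lost in either genotype.

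**Figure D4:**
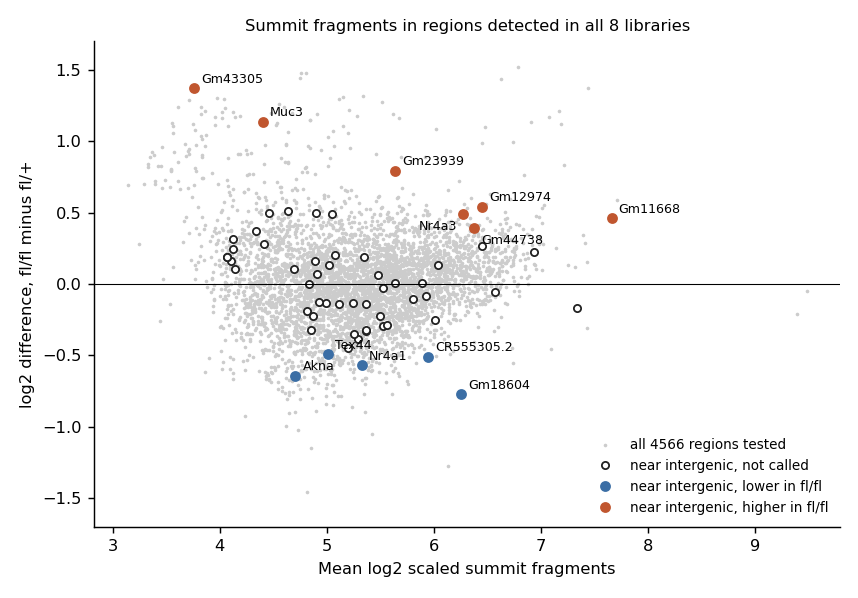
Difference in log2 scaled summit fragments between genotypes (fl/fl minus fl/+) against mean log2 scaled fragments for the 4566 regions with a value in all 8 libraries (grey) and the 59 near intergenic ones (circles, filled where the limma adjusted p is under 0.05). The called regions comprise 5 lower and 7 higher in fl/fl.

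Regions near Akna, an AT-hook protein described as a regulator of CD40, and Nr4a1, the immediate-early nuclear receptor Nur77 induced by B cell receptor signals, were lower in fl/fl. The region 7739 bp upstream of Nr4a1 held 45.3, 49.7, 44.4 and 56.8 scaled fragments in fl/+ and 27.2, 24.8, 44.3 and 39.2 in fl/fl. Every fl/fl value was below every fl/+ value, fl/fl library 3 by a small margin, and the log2 difference was -0.57 (SE 0.17, limma adjusted p = 0.021). The region 7098 bp upstream of Akna held 36.6, 32.9, 25.6 and 36.7 in fl/+ and 21.4, 23.0, 21.2 and 18.2 in fl/fl, with no overlap and a log2 difference of -0.64 (SE 0.18, limma adjusted p = 0.019). Neither call was firm. That near Nr4a1 was lost without fl/+ library 2 or 4 or fl/fl library 1 or 2 (limma adjusted p from 0.055 to 0.0895), and that near Akna without fl/+ library 1, 2 or 4 or fl/fl library 4 (limma adjusted p from 0.054 to 0.068).

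The largest fall was near the pseudogene Gm18604 on chromosome 17, where the fl/+ libraries held 78.8, 107, 109 and 108 and the fl/fl libraries 69.96, 65.6, 48.9 and 51.9. The groups did not overlap, and the log2 difference was -0.77 (SE 0.13, limma adjusted p = 7.2e-05). The region near the pseudogene CR555305.2 held 83.0, 73.8, 66.5 and 72.4 in fl/+ and 44.4, 58.5, 51.7 and 53.8 in fl/fl, again with no overlap, and the log2 difference was -0.51 (SE 0.12, limma adjusted p = 0.0061). The fifth, near Tex44, was at the margin, with a log2 difference of -0.49 (limma adjusted p = 0.046) that passed in none of the fits that left out a library other than fl/+ library 4.

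Among the 7 that were higher in fl/fl, the largest change was in a tandem repeat. The region near the transcript Gm43305 held 8.76, 5.61, 10.2 and 10.0 scaled fragments in fl/+ and 23.9, 24.8, 22.1 and 17.3 in fl/fl. The groups did not overlap, the log2 difference was 1.37 (SE 0.25, limma adjusted p = 2.1e-04), and the sign held under background scaling (0.55). The region near the snoRNA Gm23939, a tandem repeat with a 47 bp shift, held 25.3, 31.3, 47.8 and 54.6 in fl/+ and 62.5, 69.1, 73.8 and 58.3 in fl/fl, a log2 difference of 0.79 (SE 0.17, limma adjusted p = 0.0014) that was -0.03 under background scaling. Of the 31-base words, 87.8% near Gm43305 and 55.8% near Gm23939 also occur elsewhere in the genome. Reads that lie wholly within identical copies cannot be told apart, and how many did so was not examined. The region near Muc3, a membrane mucin gene, was CpG-poor (ratio 0.122) and not of the tandem-repeat kind. Its values were 12.4, 9.62, 22.2 and 15.6 in fl/+ and 38.7, 51.4, 23.1 and 20.96 in fl/fl. There fl/+ library 3 exceeded fl/fl library 4, and the log2 difference of 1.14 (SE 0.25, limma adjusted p = 0.0025) was 0.31 under background scaling. In all classes together, regions over 50% soft-masked and outside promoters, none of them near intergenic by the rule, rose in 85 of 112 cases with a median log2 difference of 0.91.

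The other higher regions were CpG-rich, and their direction turned under background scaling. The region 2494 bp upstream of the lincRNA Gm12974 held 69.6, 67.4, 71.6 and 82.4 scaled fragments in fl/+ and 112, 105, 109 and 97.5 in fl/fl. The groups did not overlap, and the log2 difference was 0.54 (SE 0.11, limma adjusted p = 9.4e-04), or -0.29 under background scaling. The region 1906 bp upstream of Nr4a3, which encodes the receptor NOR1 of the same family as Nur77, held 73.2, 65.0, 54.6 and 69.0 in fl/+ and 89.7, 78.0, 104 and 95.7 in fl/fl. The groups did not overlap there either, and the log2 difference was 0.49 (SE 0.12, limma adjusted p = 0.0062), or -0.34 under background scaling. Near the lincRNA Gm44738 the log2 difference was 0.39 (limma adjusted p = 0.017), or -0.43 under background scaling, and did not pass without fl/fl library 3 (limma adjusted p = 0.066). Tex44, Nr4a3 and Gm44738 were named after their values had been seen.

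**Figure D5:**
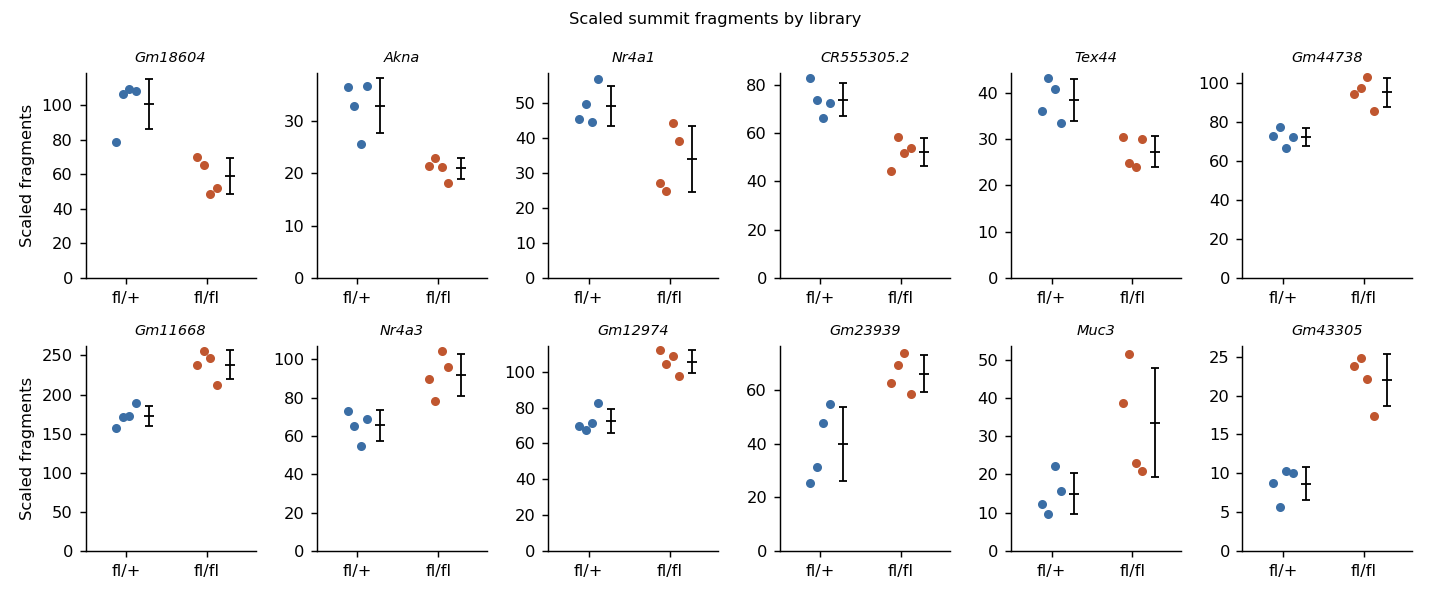
Scaled summit fragments of each library for the 12 near intergenic regions with a limma adjusted p under 0.05, named by nearest gene, with libraries as points, the mean ± SD of 4 libraries beside them and a separate axis from 0 for each region. The groups overlap near Muc3 and lie apart near Gm43305, where fl/+ is at 5.61 to 10.2 and fl/fl at 17.3 to 24.8.

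Among the 59 regions with a value in every library, the 6 with the highest median were near Gm11668 (200.8 scaled fragments), Gm2651 (161.6), Rny3 (124.6), Cirbp (97.2), Gm38144 (91.7) and Gm12974 (89.9). The region without such values, a tandem repeat near Tmem125 named after its values had been seen, had no recovered value in 3 fl/fl libraries and held 161, 151, 217 and 194 in fl/+ and 441 in fl/fl library 2, so it was not ranked. Near Gm11668 the fl/+ libraries held 158, 172, 172 and 189 and the fl/fl libraries 238, 255, 247 and 212. The groups did not overlap, and the log2 difference was 0.46 (SE 0.10, limma adjusted p = 0.0033), or -0.36 under background scaling. Near Cirbp, which encodes a cold-inducible RNA-binding protein, the values were 91.2, 92.2, 101 and 105 in fl/+ and 111, 72.7, 95.04 and 99.3 in fl/fl, which overlapped. In the region near Rny3, a Y RNA, all of the 31-base words (100%) also occur elsewhere in the genome, and near Gm2651 62.7% do. There too, reads that lie wholly within identical copies cannot be told apart, and their number was not examined.

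The immunoglobulin constant genes had near intergenic regions of the tandem-repeat kind on chromosome 12. The region 5455 bp upstream of Ighg1, 1553 bp wide at chr12:113335202-113336754 and without a CpG, was open in all 8 libraries at 19.6, 13.6, 18.8 and 12.2 scaled fragments in fl/+ and 28.8, 14.2, 18.5 and 13.7 in fl/fl. The groups overlapped, and the log2 difference of 0.19 did not pass (limma adjusted p = 0.68). The region upstream of Ighg2b at chr12:113310920-113312224, with the same 49 bp shift, was called in fl/+ libraries 1 and 2 at 4.12 and 5.61 and in fl/fl libraries 1, 2 and 3 at 9.05, 17.7 and 9.23. IgG switch regions are known to hold tandem repeats upstream of each constant gene. Further regions near Igha, Ighg2c, Ighg1, Ighg2b, Ighj4, Ighv1-74 and Igkv3-1 were each found in 1 or 2 libraries. All were named after their values had been seen.

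Listed genes of B cell function were the nearest genes of a small part of the near intergenic regions. The share was 0.984% for B cell identity and receptor genes, 0.984% for activation and NF-kB genes and 0.369% for plasma cell and class-switch genes. Whether listed genes had more or fewer near intergenic regions than other genes was not tested. Of 39 B cell identity and receptor genes 7 had at least 1, with 8 regions in all, of which 6 were in fewer fl/fl than fl/+ libraries and 2 in more. Regions near Cd72, Blnk, Cd180, Fcrla and Cd79b were each found in 1 or 2 libraries, and that downstream of Id3, an inhibitor of E proteins, in 5. Of 54 activation and NF-kB genes 7 had 8 regions, 6 in fewer fl/fl libraries and 1 in more. Of 15 plasma cell and class-switch genes 3 had 3 regions, all in fewer fl/fl libraries, and that near Prdm1, the plasma cell regulator Blimp-1, was in 5. Of 50 cell cycle genes 3 had 4 regions, 2 in fewer fl/fl libraries and 2 in as many. Of 27 BAF and PBAF subunit genes 1 had 1 region, in fewer fl/fl libraries. These counts stand beside the 72.9% of all near intergenic regions that were in fewer fl/fl libraries.

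The regions of these lists with a peak in the most libraries were near Egr3, Junb, Bicra, Cd69 and Aurkb. Upstream of Egr3, an early growth response factor, the values were 64.9, 48.9, 29.0 and 49.0 scaled fragments in fl/+ and 38.7, 31.9, 37.8 and 39.2 in fl/fl. The groups overlapped through fl/+ library 3, and the log2 difference of -0.33 did not pass (limma adjusted p = 0.226), although without that library it was -0.55 (limma adjusted p = 0.0138). Upstream of Junb, an AP-1 subunit, the values were 41.7, 39.3, 32.4 and 39.0 in fl/+ and 38.7, 24.9 and 31.9 in fl/fl libraries 1, 3 and 4, with no peak in library 2. Upstream of Cd69, an early activation receptor, they were 12.9, 14.4, 13.6 and 12.2 in fl/+ and 11.5 and 12.4 in fl/fl libraries 1 and 2, with no peak in the other two. Upstream of Bicra, a subunit of the non-canonical BAF complex, they were 57.2, 48.1, 64.8 and 61.2 in fl/+ and 35.4, 37.8 and 51.0 in fl/fl libraries 1, 3 and 4. Upstream of Aurkb, the mitotic Aurora B kinase, they were 16.5, 17.6 and 22.2 in fl/+ libraries 1 to 3 and 23.9, 14.8 and 25.5 in fl/fl libraries 1, 3 and 4, which overlapped.

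No motif differed in share between genotypes after adjustment. The comparison used the 109 near intergenic regions with the best q in each library, so that list length was equal. AP-1/BATF letters were in 13.8%, 10.1%, 7.34% and 8.26% of these in fl/+ and in 6.42%, 3.67%, 5.50% and 4.59% in fl/fl, which did not overlap (means 9.86% ± 2.84 and 5.05% ± 1.18, SD, n = 4, exact permutation p = 0.0286, adjusted over 17 motifs 0.4857). CCAAT boxes, the site of NF-Y, were in 12.8%, 14.7%, 11.01% and 17.4% in fl/+ and 11.9%, 7.34%, 6.42% and 9.17% in fl/fl, which overlapped (exact permutation p = 0.0571, adjusted 0.4857). RUNX letters had the same mean, 12.4%, in both genotypes. With 4 libraries a side and 17 motifs, no single motif could pass the adjustment alone.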

How the data were processed

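The study sequenced 16 libraries, and the 8 ATAC-seq libraries are described here; the 8 RNA-seq libraries were not used. According to the submitters' processing notes and the study's methods, the authors used Bowtie2 for alignment to the mm10 build and MACS2 for peaks of each single library. Versions and options of both are not given in the sources used here. The deposited lists give each peak's fold over local background (a ratio), its −log10 p-value and −log10 q-value, and its summit. From fold and p the whole number of fragments at the summit was recovered under the Poisson model of MACS2 (tolerance 0.002 in −log10 p, 183 peaks unresolved, 3 of them near intergenic). Values were scaled by the median ratio over 3977 promoter regions with a value in all 8 libraries, and precision is limited by counting error as well as by the 4 libraries a genotype. Genotypes were compared with limma 3.58.1 in R 4.3.3 (trended variance, Benjamini-Hochberg adjustment over 4566 regions, threshold 0.05) and with two-sided exact permutation tests over 70 assignments. Classes were compared within libraries over 256 sign assignments, with 0.00781 as the smallest p. Scripts were tested on simulated data. Regions were named if they were confined to 1 genotype in all 4 of its libraries (all, or the best 5), among the 6 strongest, among the 4 with the largest called differences in each direction, or near a listed gene. The regions, lists and tests were chosen with earlier results of these data known. Alternatives covered q thresholds, equal lists, overlap, joining distance, distance and masking limits, scaling, left-out libraries and the replicate number as a block.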

Additional observations from a re-analysis of the deposited data

Results flagged for a closer look

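In each genotype's 4 libraries, a value was singled out when its gap to the nearest other library, divided by the range, exceeded Dixon's critical value, which chance does in about 1 of 20 groups. This held for 7 of 98 groups. Peaks near intergenic regions had a local background above the library background in 82.4% of cases in fl/+ library 1, against 92.1% to 92.7% in the other fl/+ libraries. CpG-rich near intergenic regions were detected at 32.6% in fl/fl library 2, against 50.8% to 53.5% in the other fl/fl libraries. The same library had SP/KLF letters in 36.7% of its best 109 regions, against 45.9% to 47.7%, and E2F letters in 1.83%, against 6.42% to 7.34%. In fl/fl library 3 CTCF letters were in 7.34%, against 6.42% in each of the others, a difference of 1 region. Near Gm18604, fl/+ library 1 held 78.8 scaled fragments, against 107 to 109 in the other fl/+ libraries and 69.96 at most in fl/fl. Near Pmaip1, fl/+ library 2 held 27.3, against 18.8 to 20.1. No cause of these values was tested.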

How the results depend on the processing

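The number of regions confined to fl/+ was 9 as reported, 4 and 3 with −log10 q of at least 5 and 10, 5 with equal lists, 5 with peaks covering at least 50% of the region, 5 with protein-coding start sites, 3 within 5 kb, and 9 to 26 with 1 library left out. The number confined to fl/fl was 3, and became 1 with −log10 q of at least 10, 0 with protein-coding start sites, 0 without tandem-repeat regions and 3 to 6 with 1 library left out. The detection difference between genotypes ran from -29.5 to -11.2 points with 1 library left out and the regions rebuilt and was -5.50 with equal lists, that relative to promoters ran from -14.3 to -8.76 and was -15.0 over regions in at least 2 libraries and -4.50 with equal lists, that relative to far intergenic regions ran from -0.0657 to 1.69 and was 2.12 with equal lists, and that relative to near intronic regions ran from -0.223 to 1.14 and was -1.93 with equal lists. Within libraries, equal lists gave 4.55 points over far intergenic detection (adjusted p = 0.080), a width of -39.6 bp relative to promoters (adjusted p = 0.0625) and -13.8 bp relative to near intronic regions, and a local background 0.0781 above that of promoters, by exact permutation.

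In limma, called regions numbered 49 lower and 1 higher with background scaling (median -0.82), 3 and 2 with the deposited fold, and 12 and 12 when a peak in at least 3 libraries of each genotype sufficed. Leaving out 1 library gave 2 to 5 lower, 6 to 9 higher and medians from -0.0399 to 0.0812. Background scaling reversed Gm23939 (-0.033), Gm11668 (-0.36), Gm38144 (-0.56), Nr4a3 (-0.34), Gm12974 (-0.29), Rny3 (-0.60) and Gm44738 (-0.43). The deposited fold reversed Cirbp (0.036) and Gm2651 (0.15), and Cirbp ranged from -0.138 to 0.0663 with 1 library left out, positive without fl/fl library 2. Neither was called. Motif differences that changed sign, none of them called, were RUNX at -2.06 points and E2F at 1.38 within 250 bp of the summit, and RUNX at -4.06, IRF at -1.89, SP/KLF at 2.32 and CRE at 0.548 over all regions of each library. The causes were not tested beyond what each setting changes by construction.

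Libraries with the same replicate number did not deviate together (correlations of -0.0609 to -0.0084), so the numbers were not taken as pairs. With the replicate number as a block, 4 regions were lower and 7 higher, Tex44 being lost (limma adjusted p = 0.058), and the detection difference of -20.5 points had an exact permutation p of 0.5.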
